A study of Mus musculus with 34 samples.

Results

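The 9 genes described here encode potassium channel subunits that are linked to fast spiking: the Kv3 pore subunits Kcnc1, Kcnc2 and Kcnc4, the silent subunits Kcng4 and Kcns3, the Kv1 pore subunits Kcna1 and Kcna2, the beta subunit Kcnab3 and the accessory subunit Kcnip2. They were chosen by symbol, with no threshold on a measured value but with earlier results of these data known. They are 9 of the 53465 genes listed in the largest tables. All 9 were counted in all 5 tables and passed the filter on low counts in every comparison.

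The measurements come from 34 RiboTag libraries of mice at postnatal day 60, in 11 groups and 5 batches. RiboTag marks ribosomes with an HA epitope on Rpl22 in cells that express Cre, so that ribosome-bound mRNA can be pulled down from a tissue lysate. Every group carried the RiboTag allele, on a background labelled C57/BL6, with Cre driven from the Pvalb gene (PV libraries) or the Sst gene (SST libraries); the tissue is labelled cortex and hippocampus, while the extraction protocol speaks of cortices. PV:Cre/Ribotag mice gave saline (n = 3) and pentylenetetrazol, PTZ (n = 4), libraries in batch 1, saline libraries (n = 2) in batch 2, and home cage (n = 3) and contextual fear conditioning, CFC (n = 3), libraries in batch 3. Sst:Cre/Ribotag mice gave saline (n = 4) and PTZ (n = 3) libraries in batch 2 and home cage (n = 3) and CFC (n = 3) libraries in batch 4. Home cage mice of genotype PV:Cre/Nr4a1-f/f/Ribotag (n = 3) were in batch 3, and those of genotype Sst:Cre/Nr4a1-f/f/Ribotag (n = 3) in batch 5. PTZ is a convulsant that antagonises GABA-A receptors and was given once, at a dose the labels do not state; in CFC an animal learns to associate a chamber with shock. The comparisons ask what each stimulus changes in each cell class and how libraries from mice with floxed Nr4a1 differ. Each Cre driver marks a whole class with several subclasses of cells, and a lower level in a pull-down can reflect fewer tagged cells of a type or less RNA per cell, which cannot be told apart.

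Kv3 channels open only at strongly depolarised voltages and close quickly, which keeps action potentials narrow and lets a neuron fire at high rates; PV basket cells are the classic example in cortex. Kv1 channels open at lower voltages, sit at the axon initial segment and along axons, and set spike threshold and delay. Silent subunits form no channel alone and change the behaviour of Kv2 pores they join, Kcnab3 binds Kv1 pores from inside the cell, and Kcnip2 (KChIP2) is a calcium-binding partner of Kv4 pores.

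Sst mRNA separated the Cre lines, with 1746 to 6138 CPM (counts divided by the TMM-scaled library size, in the usual per-megaread unit) in SST libraries with intact Nr4a1 and 30.2 to 464 CPM in PV libraries. Pvalb did not separate them in the later batches: it was 243 and 362 CPM in PV saline against 6.22 to 12.0 CPM in SST saline of batch 2, but 155 to 190.3 CPM in PV home cage against 88.0 to 485 CPM in SST home cage libraries. It was also low in PV saline of batch 1, at 15.9 to 22.1 CPM. Nr4a1, the floxed gene, was at 6.67, 16.4 and 7.64 CPM in the PV libraries labelled Nr4a1-f/f and at 5.07, 7.43 and 11.7 CPM in their home cage controls. In the SST libraries labelled Nr4a1-f/f it was at 14.2, 11.3 and 17.5 CPM against 23.8, 15.3 and 13.9 CPM. The mRNA count therefore does not check these labels, and the floxed exons are not named in the labels. CPM values are scaled within a batch (batches 4 and 5 together), and levels differ widely between batches for the same Cre line: Kcna2 was at 1737 and 1739 CPM in PV saline of batch 2 and at 349 to 366 CPM in PV home cage of batch 3. Comparisons were therefore made within a batch wherever the design allows.

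Promoter sequences of 7 of the 9 genes matched the RefSeq table of build GRCm38.p6, which has no entry for Kcna1 and Kcnab3. The 250 bases upstream of the start site are shown for Kcnc1, Kcng4 and Kcnip2, a Kv3 pore, a silent subunit and an accessory subunit whose levels differ between the lines as described further on, read 5′ to 3′ on the gene's strand with the GC box (GGGCGG, on either strand) in capitals. They lie at chr7:46396218-46396467 (plus strand), chr8:119635681-119635930 (minus strand) and chr19:45816064-45816313 (minus strand).
Kcnc1: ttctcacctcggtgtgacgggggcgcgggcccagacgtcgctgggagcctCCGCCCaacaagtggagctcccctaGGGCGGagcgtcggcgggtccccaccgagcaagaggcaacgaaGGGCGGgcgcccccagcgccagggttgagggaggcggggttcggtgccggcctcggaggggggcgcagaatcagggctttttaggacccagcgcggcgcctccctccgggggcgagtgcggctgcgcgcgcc
Kcng4: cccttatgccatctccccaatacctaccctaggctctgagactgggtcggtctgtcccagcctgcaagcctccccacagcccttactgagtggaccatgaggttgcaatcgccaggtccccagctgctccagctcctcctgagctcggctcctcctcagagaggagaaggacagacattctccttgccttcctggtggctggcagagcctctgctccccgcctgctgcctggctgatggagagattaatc
Kcnip2: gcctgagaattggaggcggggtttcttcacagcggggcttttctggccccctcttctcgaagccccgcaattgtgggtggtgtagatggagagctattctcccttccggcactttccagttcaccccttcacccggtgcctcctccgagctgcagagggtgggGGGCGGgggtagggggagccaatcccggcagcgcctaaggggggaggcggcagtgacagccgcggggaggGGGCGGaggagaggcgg
The Kcnc1 window holds 3 GC boxes and is 74.4% G and C, the Kcnip2 window holds 2 and is 66.8% G and C, and the Kcng4 window holds 0 and is 60.4% G and C. Over the 11 windows of the 7 genes, 6 windows of 5 genes hold a GC box, against 32.7% of 32851 windows of all genes. The NGFI-B response element that Nr4a1 is known to bind (AAAGGTCA) was in 0 of the 11 windows and in 1.34% of all windows, the cAMP response element (TGACGTCA) in 0 and 1.55%, and the AP-1 motif (TGANTCA) in 0 and 6.75%. Both strands were searched, and none of the 4 motifs is contained in another. The windows are not all separate. Kcnc2 has windows 1 to 4, and windows 2, 3 and 4 overlap, at chr10:112270871-112271120, chr10:112270873-112271122 and chr10:112271023-112271272. The 11 windows thus repeat some bases. These counts describe the letters of the windows only.

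**Figure D1:**
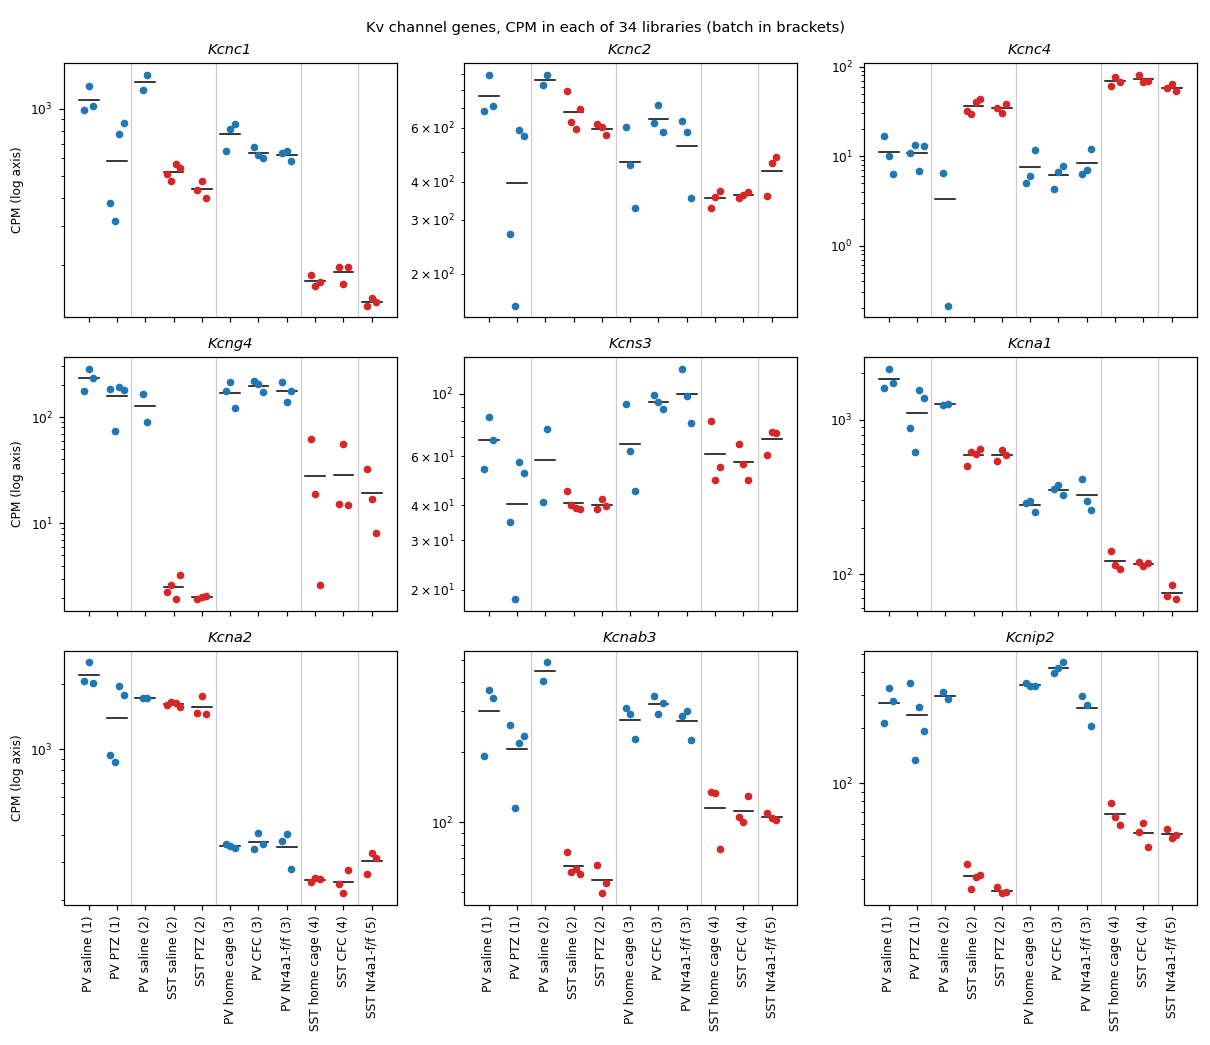
CPM (log axis) of each of the 9 genes in all 34 libraries, with PV libraries in blue, SST libraries in red, the group mean as a line, the batch in brackets and grey lines between batches. Kcng4, Kcnab3 and Kcnip2 sit far lower in SST than in PV saline libraries of batch 2, Kcnc4 sits higher, and Kcna2 differs more between batches than between lines.

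Within batch 2, where both Cre lines were counted together, SST saline libraries carried less mRNA of most of these subunits than PV saline libraries, and more of Kcnc4. Of the 9 genes, 6 were lower and 1 was higher by edgeR's quasi-likelihood test at a Benjamini-Hochberg adjusted p under 0.05. The largest falls were those of Kcng4, Kcnip2 and Kcnab3, followed by Kcnc1 and Kcna1. Over all 11784 genes tested, 53.1% passed the same threshold (27.1% lower and 26% higher), so a single call carries little weight here and sizes say more. On CPM alone 7 of the 9 genes were lower and 1 higher without overlap, beside 28.5% and 30.7% of all genes. The median log2 fold change of the 9 genes was -1.09 and that of all genes 0.01. Since the 9 genes were picked for their link to fast spiking, of which PV basket cells are the classic example, this median describes the chosen list only. The PV saline side is 2 libraries with totals of 4933110 and 6161764 counts, the shallowest of the series.

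Kcnc1 encodes Kv3.1, the main Kv3 pore of fast-spiking cells, and lies at chr7:46396497-46438704 (GRCm38). PV saline libraries held 1219 and 1426 CPM of its mRNA, against 511, 476, 564 and 542 CPM in SST saline libraries. The groups did not overlap, and the fitted log2 fold change was -1.34 ± 0.11 (SE; edgeR adjusted p = 2.52e-06). Kcnc2, which encodes Kv3.2 and lies at chr10:112271121-112467024, was at 829 and 895 CPM in PV and at 792, 628, 596 and 691 CPM in SST libraries. That difference was small, at -0.35 ± 0.12 on the log2 scale (edgeR adjusted p = 0.0292), and the call was lost without any of SST saline replicates 2, 3 and 4 or PV saline replicate 2, with adjusted p from 0.0511 to 0.107. The ratio of Kcnc1 to Kcnc2 CPM within a library, which does not depend on how libraries are scaled, was 1.47 and 1.59 in PV and 0.646 to 0.946 in SST saline libraries. The 2 pores thus stand in a different proportion in the 2 lines, and the ratios did not overlap.

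Kcnc4, which encodes Kv3.4, a Kv3 pore that inactivates quickly, lies at chr3:107438303-107459552 and went the other way. It was at 6.50 and 0.214 CPM in PV saline libraries and at 32.1, 29.2, 40.0 and 43.3 CPM in SST saline libraries. The fitted difference was 3.29 ± 0.54 on the log2 scale (edgeR adjusted p = 0.000362). Its size is loose, since the PV libraries held 43 counts and 1 count: it was 2.48 without PV saline replicate 2 and 7.34 without replicate 1. Kcnc1 was thus lower in SST libraries and Kcnc4 higher, while the call for the small Kcnc2 difference depended on single libraries.

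The silent subunit Kcng4 (Kv6.4, chr8:119623854-119635680) showed the largest difference of the 9 genes in this comparison. It was at 167 and 89.4 CPM in PV saline libraries and at 2.24, 2.61, 1.92 and 3.25 CPM in SST saline libraries. The fitted log2 fold change was -5.66 ± 0.26, a 50.6-fold lower level (edgeR adjusted p = 2.88e-08). Kcns3 (Kv9.3, chr12:11090202-11151056), the other silent subunit, was at 41.3 and 75.3 CPM in PV and at 38.9 to 45.2 CPM in SST saline libraries. These groups overlapped, and the difference of -0.50 ± 0.20 on the log2 scale missed the threshold (edgeR adjusted p = 0.0502). It rested on a single library: without PV saline replicate 1 it was -0.89 (adjusted p = 0.000145), and without replicate 2 it was near 0.

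Kcna1 (Kv1.1, chr6:126640397-126646384) was at 1246 and 1267 CPM in PV saline libraries and at 501, 619, 597 and 646 CPM in SST saline libraries. The levels did not overlap, and the log2 fold change was -1.09 ± 0.12 (edgeR adjusted p = 1.43e-05). Kcna2 (Kv1.2, chr3:107101146-107115005) was at 1737 and 1739 CPM in PV and at 1603, 1652, 1645 and 1578 CPM in SST libraries. Although these groups did not overlap, the difference of -0.10 ± 0.10 on the log2 scale was within its error (edgeR adjusted p = 0.422). The ratio of Kcna1 to Kcna2 CPM within a library was 0.718 and 0.729 in PV and 0.313 to 0.409 in SST saline libraries. The Kv1 pores differed between the lines in Kcna1 far more than in Kcna2.

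Kcnab3 (Kv beta 3, chr11:69326258-69333042) was at 407 and 488 CPM in PV saline libraries and at 74.1, 60.8, 63.0 and 60.1 CPM in SST saline libraries. Its log2 fold change was -2.79 ± 0.14 (edgeR adjusted p = 5.66e-08). The antisense gene Kcnab3os shares 147 bases, or 5.13%, of the Kcnab3 exons, and reads from it cannot be told apart because no source read here states whether counting used strand. Kcnip2 (chr19:45791839-45816061) was at 311 and 285 CPM in PV and at 36.5, 26.6, 30.9 and 31.6 CPM in SST saline libraries. That is a log2 fold change of -3.25 ± 0.13 (edgeR adjusted p = 1.66e-08), 9.48-fold lower in SST libraries. For both genes every SST saline library lay far under both PV libraries, and of the 3 genes with promoters printed above, Kcng4 and Kcnip2 differed most between the lines.

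Markers of excitatory neurons and of oligodendrocytes overlapped between these 2 groups. Summed over 8 PV interneuron markers (7 of them listed in this table), PV saline libraries held 1160 and 1275 CPM and SST saline libraries 132 to 182 CPM. The 8 excitatory neuron markers (7 listed) summed to 1424 and 1527 CPM in PV and to 1085 to 1617 CPM in SST saline libraries, so excitatory mRNA was present in both lines over one range. The 7 oligodendrocyte lineage markers summed to 255 and 287 CPM in PV and to 279 to 332 CPM in SST saline libraries. Microglia markers did not overlap, at 9.41 and 13.3 CPM in PV and 21.05 to 23.97 CPM in SST saline libraries. Nor did the 6 markers of all GABAergic neurons, which summed to 3361 and 4175 CPM in PV and to 5418 to 5628 CPM in SST saline libraries. The part of these markers in the channel differences was not tested.

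Scaled to exon length, the order of levels in PV saline libraries of batch 2 was Kcna1 at 263 ± 2.98 CPM per kb (SD, n = 2), Kcnab3 at 156 ± 19.9, Kcna2 at 146 ± 0.0915, Kcnc1 at 139.8 ± 15.5, Kcnc2 at 121 ± 6.56, Kcnip2 at 85.7 ± 5.28, Kcng4 at 33.7 ± 14.4, Kcns3 at 18.4 ± 7.59 and Kcnc4 at 0.916 ± 1.21. The neighbours Kcnab3, Kcna2, Kcnc1 and Kcnc2 each differed from the next by less than the sum of their SDs, and so did Kcng4 and Kcns3. In SST saline libraries the order was Kcna2 at 136 ± 2.94 CPM per kb (SD, n = 4), Kcna1 at 124 ± 13.2, Kcnc2 at 94.8 ± 12.1, Kcnc1 at 55.4 ± 4.03, Kcnab3 at 22.5 ± 2.27, Kcns3 at 12.9 ± 0.923, Kcnc4 at 9.86 ± 1.80, Kcnip2 at 9.03 ± 1.17 and Kcng4 at 0.658 ± 0.149. There only Kcna2 and Kcna1, and Kcnc4 and Kcnip2, were neighbours that differed by less than the sum of their SDs. Kcnab3 thus stood at rank 2 of the 9 in PV and rank 5 in SST libraries, and Kcng4 went from above Kcns3 to the bottom of the order.

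**Figure D2:**
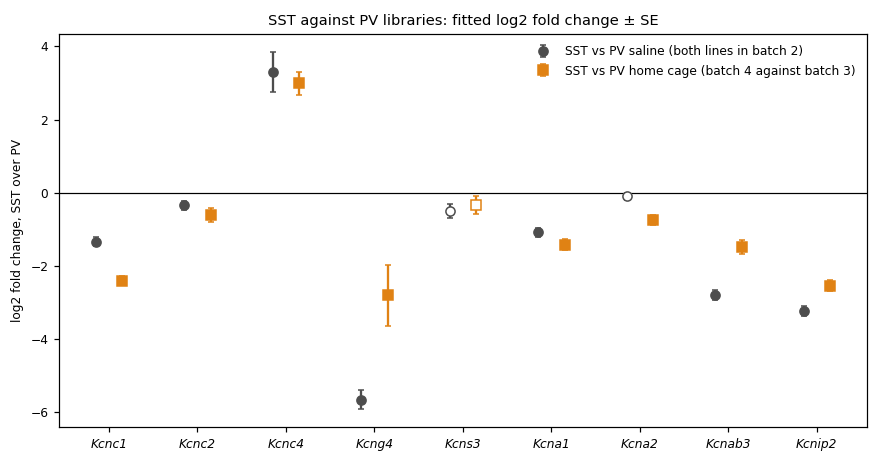
Fitted log2 fold change of SST over PV libraries (points, with SE as bars) for the 9 genes, in saline libraries of batch 2 (grey circles) and home cage libraries of batch 4 against batch 3 (orange squares); filled points passed the adjusted p threshold of 0.05. Kcng4 is at -5.66 in saline and at -2.81 in home cage libraries, and Kcnc4 is the only gene above 0 in both.

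Home cage libraries give a further comparison of the lines, in which batch 4 (SST) and batch 3 (PV) coincide with the Cre line and cannot be told apart from it. There 7 of the 9 genes were lower and 1 was higher in SST libraries by edgeR, against 35.7% of 16081 genes called (18% lower and 17.7% higher). Scaled together, 7 genes were lower and 1 higher without overlap, beside 21.7% and 22.5% of all genes. Kcnc1 was at 650.5, 816 and 859 CPM in PV and at 181, 161 and 168 CPM in SST home cage libraries, a log2 fold change of -2.41 ± 0.12 (edgeR adjusted p = 1.43e-09). Kcnip2 was at 351, 335 and 335 CPM in PV and at 78.3, 65.8 and 59.4 CPM in SST libraries (-2.55 ± 0.15, edgeR adjusted p = 7.81e-09). Both were lower in every SST library, and so were Kcna1 (-1.43 ± 0.15, edgeR adjusted p = 4.05e-06), Kcnab3 (-1.49 ± 0.19, adjusted p = 2.36e-05) and Kcna2 (-0.74 ± 0.13, adjusted p = 0.000362). Kcna2, which missed the threshold in the saline comparison, was called here; the difference between the comparisons was not tested. Vascular and mural markers overlapped between SST and PV home cage libraries, at 104 to 528 CPM against 106 to 139 CPM. Markers of several other cell types were higher in SST than in PV home cage libraries without overlap. Oligodendrocyte lineage markers summed to 954 to 1387 CPM against 184 to 360.4 CPM, and excitatory neuron markers to 574 to 738 CPM against 300.5 to 357 CPM. Astrocyte markers summed to 103 to 239 CPM against 48.3 to 62.6 CPM, and microglia markers to 36.5 to 55.4 CPM against 20.3 to 21.3 CPM. Their part in the 8 calls was not tested.

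Kcnc4 was at 4.97, 5.98 and 11.7 CPM in PV and at 60.7, 77 and 67.6 CPM in SST home cage libraries. Here all 6 libraries had enough reads to set its size, and it was higher by 2.99 ± 0.32 on the log2 scale (edgeR adjusted p = 3.47e-06). Kcnc2 was at 605, 454 and 329 CPM in PV and at 329, 356 and 374 CPM in SST libraries. With batch 3 scaled apart from batches 4 and 5 the groups overlapped, since PV home cage replicate 3 lay under every SST library. The Kcnc2 difference of -0.61 ± 0.20 (edgeR adjusted p = 0.0249) did not hold without PV home cage replicate 1 or 2 or SST home cage replicate 1 or 2, with adjusted p from 0.058 to 0.137. Kcns3 was at 44.9 to 91.8 CPM in PV and at 49.3 to 79.9 CPM in SST libraries and did not pass (edgeR adjusted p = 0.289). The ratio of Kcnc1 to Kcnc2 was 1.07, 1.80 and 2.61 in PV and 0.449 to 0.550 in SST home cage libraries, again without overlap.

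Kcng4 varied widely among SST home cage libraries, at 62.9, 19.1 and 2.62 CPM, against 175, 213 and 122 CPM in PV home cage libraries. Its difference was -2.81 ± 0.83 (edgeR adjusted p = 0.0196). It was -4.23 without SST home cage replicate 1 and -2.27 without replicate 3, and it missed the threshold without replicate 2 (-2.59, adjusted p = 0.0752). Pvalb in the same SST libraries was at 485, 189 and 88.0 CPM, in the same order as Kcng4. In SST CFC libraries of that batch Kcng4 was at 15.2, 56.4 and 14.8 CPM and Pvalb at 223, 431 and 243 CPM. Over these 6 libraries, which share a batch, Pearson's r between the log2 CPM of the pair was 0.977 (exact permutation p = 0.0139, adjusted p = 0.125 over the 9 genes) and Spearman's rho 0.771 (exact permutation p = 0.103, adjusted p = 0.634). Without the 2 libraries farthest from the median of Pvalb, r was 0.892. For the other 8 genes r with Pvalb in these libraries lay between -0.658 and 0.657, with adjusted p of 0.456 or more by exact permutation. Summed PV interneuron markers were 660 to 1068 CPM in SST home cage and 1646 to 2569 CPM in PV home cage libraries, a narrower gap than in batch 2. The 2 gaps are not measured alike. The sums here cover 8 markers, with the 2 groups scaled apart, while those of batch 2 cover 7, scaled together. Kcng4, Kcnab3, Kcnip2, Kcns3 and Kcnc4 differed less between the lines here than in batch 2. Other genes differed more: Kcnc1 (-2.41 against -1.34), Kcna1 (-1.43 against -1.09), Kcna2 (-0.74 against -0.10) and Kcnc2 (-0.61 against -0.35). The part of the PV marker signal in these differences was not tested.

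**Figure D3:**
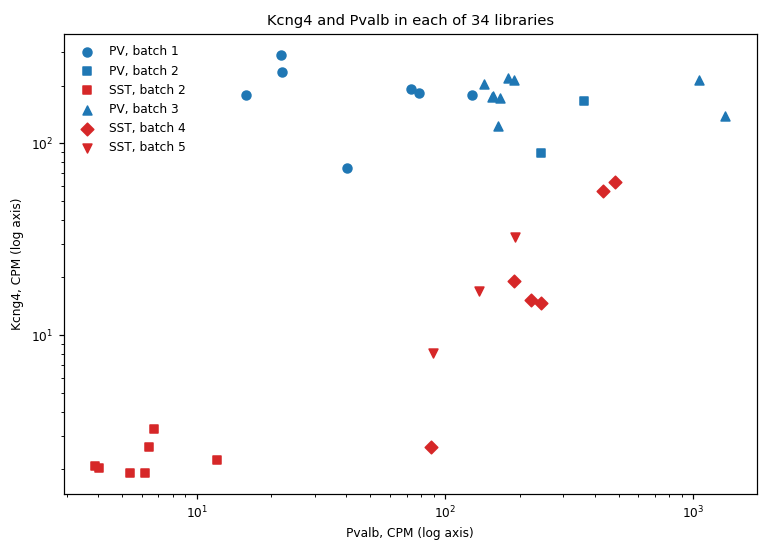
Kcng4 against Pvalb CPM (both log axes) in each of 34 libraries, with PV libraries in blue, SST libraries in red and a marker shape per batch. In SST libraries of batch 4 the 2 with the highest Pvalb, 485 and 431 CPM, also have the highest Kcng4, 62.9 and 56.4 CPM, while SST libraries of batch 2 are low in both.

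The wider set of voltage-gated potassium channel genes and axonal Kv1 partners did not share the direction of the 9 genes. Of 36 other genes, 33 were tested in the saline comparison of batch 2, and 17 were higher and 9 lower in SST libraries, with a median log2 fold change of 0.57 beside 0.01 for all genes. Among Kv4 pores and partners, which Kcnip2 belongs with, 5 of 8 were higher and 1 lower. The A-type pore Kcnd3 (Kv4.3) rose from a mean of 24.5 CPM in PV to 256 CPM in SST libraries, or 3.36 ± 0.23 on the log2 scale (edgeR adjusted p = 5.47e-07), while its partner Kcnip2 fell.

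Among other Kv1 genes, 3 of 5 tested were higher and 1 was lower. The lower gene was Kcnab2, a beta subunit like Kcnab3, at a mean of 741 CPM in PV and 242 CPM in SST libraries (-1.62 ± 0.10, edgeR adjusted p = 3.01e-07). Of the Kv2 pore and other silent subunit genes reported here, 4 of 6 tested were higher and 2 lower. The silent subunit Kcnf1 (Kv5.1) was higher by 2.76 ± 0.25 on the log2 scale (edgeR adjusted p = 4.06e-06), opposite to Kcng4. Of the EAG family, 1 of 6 was higher and 3 were lower, including Kcnh7 (-1.66 ± 0.15, edgeR adjusted p = 4.83e-06). Of 5 Kv1 partners at the axon, 3 were higher and 1 lower, and Lgi1, a secreted protein that acts with Kv1 channels, was higher by 1.88 ± 0.15 (edgeR adjusted p = 1.36e-06). Of 3 Kv7 pores reported here, 1 was higher and 1 lower.

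The same 5 genes were named in the home cage comparison, where 17 of 35 other genes tested were higher and 8 lower. Kcnab2 was at -1.71 ± 0.10 and Kcnh7 at -1.69 ± 0.18 on the log2 scale. On the other side, Kcnf1 was at 2.99 ± 0.23, Kcnd3 at 2.11 ± 0.21 and Lgi1 at 1.63 ± 0.18. All 5 passed, with edgeR adjusted p of 4.06e-06 or less.

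**Figure D4:**
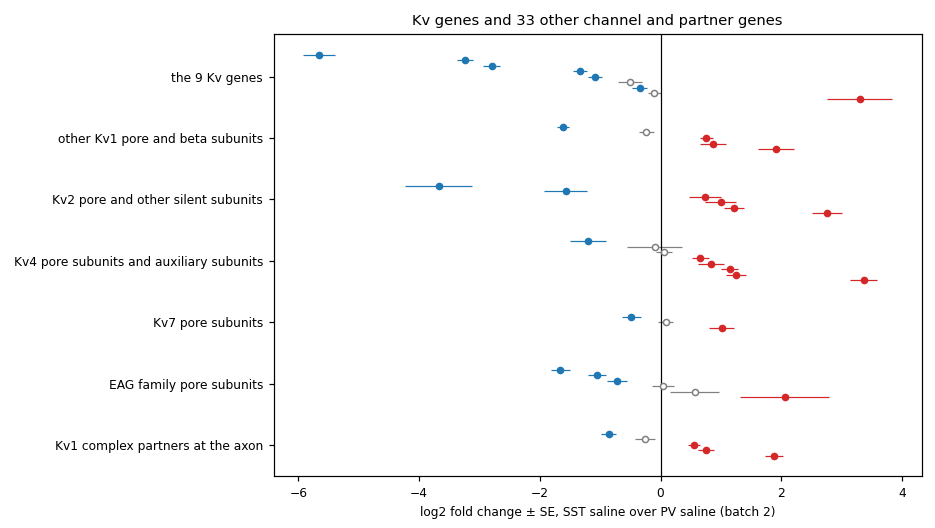
Fitted log2 fold change (points, with SE as bars) of SST over PV saline libraries of batch 2 for the 9 genes and, by list, 33 other channel and partner genes; red passed the adjusted p threshold as higher in SST, blue as lower, and open grey points did not pass. The 9 genes sit mostly below 0 with a median of -1.09, while the other 33 have a median of 0.57.

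PTZ left no called change in these genes in either line. In PV libraries of batch 1, 0 of the 9 genes passed by edgeR (0.0294% of 13598 genes did) and 0 by DESeq2, while 4 had an unadjusted p under 0.05, as did 1875 of the 13598 genes. All 9 fitted differences were negative, with a median of -0.67 on the log2 scale beside -0.01 for all genes. Kcnc1 was at 990.1, 1269.6 and 1037 CPM after saline and at 379, 314, 772 and 865 CPM after PTZ. Every PTZ library was under every saline library, and the difference was -0.92 ± 0.35 (edgeR adjusted p = 0.324). The same lack of overlap held for Kcnc2, Kcna1 and Kcna2, which makes 4 of 9 genes beside 6.24% of all genes without overlap in that direction. None of the 9 was higher without overlap, beside 7.56% of all genes.

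Kcnc2 was at 683, 898 and 710.1 CPM after saline and at 269, 157, 589 and 564 CPM after PTZ (-0.95 ± 0.40, edgeR adjusted p = 0.347). Kcna1 was at 1606, 2146 and 1721 CPM after saline and at 884, 621, 1548 and 1373 CPM after PTZ (-0.72 ± 0.31, edgeR adjusted p = 0.351). Kcna2 was at 2079, 2532 and 2037 CPM after saline and at 941, 872, 1975 and 1780.3 CPM after PTZ (-0.67 ± 0.32, edgeR adjusted p = 0.37). In all 4 genes PTZ replicates 1 and 2 were far lower than PTZ replicates 3 and 4. Without those 2 libraries, a choice made after seeing the data, Kcnc1 was at -0.42 ± 0.20, Kcnc2 at -0.40 ± 0.20, Kcna1 at -0.32 ± 0.21 and Kcna2 at -0.24 ± 0.20 (edgeR adjusted p from 0.671 to 0.76), and all 9 differences were still negative.

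PTZ replicates 1 and 2 also had the lowest summed PV interneuron markers, 277 and 215 CPM, against 602 and 658 CPM in replicates 3 and 4 and 716 to 930 CPM after saline. Pvalb itself went the other way in this batch, at 40.3 to 128 CPM after PTZ and 15.9 to 22.1 CPM after saline. Microglia markers summed to 43.0 to 296 CPM after PTZ and 23.5 to 80.1 CPM after saline, and oligodendrocyte lineage markers to 479 to 3353 CPM after PTZ and 797 to 2126 CPM after saline. The part of these markers in the lower channel levels was not tested. The remaining 5 genes overlapped between treatments, with differences from -0.75 (Kcns3) to -0.02 (Kcnc4) on the log2 scale. Of the 36 other channel genes tested, 0 passed by edgeR and 7 had an unadjusted p under 0.05. Those with the smallest p were Kcnh4 (0.99 ± 0.30, edgeR adjusted p = 0.299) and Kcna6 (-0.66 ± 0.21, adjusted p = 0.302).

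In SST libraries of batch 2, 0 of the 9 genes passed after PTZ by edgeR (0.144% of 11784 genes did) and 0 by DESeq2. An unadjusted p below 0.05 was seen for 1 of the 9 and for 511 of all genes. The shifts were small, with a median of -0.18 on the log2 scale, and all 9 genes overlapped between treatments, while 5.84% of all genes were lower and 4.57% higher without overlap. Kcnc1 was at 432, 476 and 399.8 CPM after PTZ and at 476 to 564 CPM after saline (-0.26 ± 0.10, edgeR adjusted p = 0.989). Kcnip2 was at 27.5, 25.2 and 25.6 CPM after PTZ and at 26.6 to 36.5 CPM after saline (-0.27 ± 0.12, edgeR adjusted p = 0.989). Both lay at the lower end of the saline range or under it. Markers of all GABAergic neurons summed to 5713 to 7385 CPM after PTZ and to 5418 to 5628 CPM after saline, without overlap. Vascular and mural markers (5 of 8 listed) summed to 14.8 to 18.6 CPM against 8.89 to 14.7 CPM. The part of these markers in the channel levels was not tested. Of 33 other channel genes, 0 passed by edgeR and 2 had an unadjusted p under 0.05, namely Kcnv1 (0.51 ± 0.20) and Kcnh2 (-0.33 ± 0.14), each with an edgeR adjusted p of 0.989.

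The PTZ response of SST minus that of PV libraries was tested as a difference of differences, and 0 of the 9 genes passed by edgeR or by DESeq2 (0% of 11743 genes passed by edgeR), and none of the 9 had an unadjusted p below 0.05, which 602 of all genes had. The smallest p was that of Kcna1, at 0.68 ± 0.32 on the log2 scale (edgeR adjusted p = 0.82). Among the other channel genes 0 of 33 passed, and Kcna6 (0.56 ± 0.22) and Cntnap2 (1.13 ± 0.45), which encodes the axonal Kv1 partner Caspr2, had the smallest p, each with an edgeR adjusted p of 0.82.

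After CFC, PV libraries showed small shifts in both directions. By edgeR 0 of the 9 genes passed, as did 0% of all 15150 genes, and DESeq2 called 0 of the 9. An unadjusted p under 0.05 was found for 2 of the 9 and for 2834 of all genes. Kcnip2 was at 397, 422 and 452 CPM after CFC and at 351, 335 and 335 CPM in the home cage (0.31 ± 0.14, edgeR adjusted p = 0.252). Kcna1 was at 354, 376 and 327 CPM after CFC and at 291, 297 and 252 CPM in the home cage (0.33 ± 0.16, edgeR adjusted p = 0.288). These were the 2 genes that were higher without overlap, beside 13.6% of all genes, and none was lower without overlap, beside 11.4%. Kcnc1 was at 675, 623 and 604 CPM after CFC and at 650.5, 816 and 859 CPM in the home cage, lower by 0.29 ± 0.13 on average (edgeR adjusted p = 0.249) but with overlap. Some marker sums were also higher after CFC without overlap. Markers of all GABAergic neurons summed to 4437 to 5219 CPM after CFC and to 2903 to 4367 CPM in the home cage. Astrocyte markers summed to 63.65 to 134 CPM against 48.3 to 62.6 CPM. The part of these markers in the channel shifts was not tested.

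Several of these genes ran in steps over home cage replicates 1, 2 and 3 of batch 3. Kcnc1 rose in that order, while Kcnc2 (605, 454 and 329 CPM) and Kcns3 (91.8, 62.6 and 44.9 CPM) fell. Library totals fell likewise, at 20353741, 15301328 and 10096035 counts, as did summed markers of all GABAergic neurons, at 4367, 3744 and 2903 CPM. Sst rose, at 125, 215 and 464 CPM, and the part of these in the channel levels was not tested. Without home cage replicate 1, which is 1 end of these steps, Kcns3 was called higher after CFC (0.80 ± 0.20, edgeR adjusted p = 0.035) while 1481 genes were called in all. With all libraries Kcns3 was at 99.5, 93.7 and 88.2 CPM after CFC and at 91.8, 62.6 and 44.9 CPM in the home cage (0.49 ± 0.23, edgeR adjusted p = 0.279). The ratio of Kcnc1 to Kcnc2 was 0.871 to 1.09 after CFC, beside 1.07, 1.80 and 2.61 in the home cage, so the groups met only at home cage replicate 1. Of 35 other channel genes 0 passed by edgeR, 6 had an unadjusted p under 0.05, and the smallest p values were those of the Lgi1 receptor Adam22 (0.63 ± 0.20, edgeR adjusted p = 0.186) and of Cntn2 (0.48 ± 0.16, adjusted p = 0.187).

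In SST libraries of batch 4, CFC moved these genes little. By edgeR 0 of the 9 genes passed (0.0411% of 14614 genes did, 0.0342% higher and 0.00684% lower), DESeq2 called 0, and 1 of the 9 had an unadjusted p under 0.05, as did 814 of all genes. That gene was Kcnip2, at 54.4, 60.6 and 45.2 CPM after CFC and at 78.3, 65.8 and 59.4 CPM in the home cage (-0.35 ± 0.15, edgeR adjusted p = 0.896). All 9 genes overlapped between the groups, beside 4.8% of all genes higher and 5.8% lower without overlap, with Kcnc1 at 196, 165 and 195 CPM after CFC and Kcnc4 at 81.6, 68.0 and 68.6 CPM. Leaving Kcng4 aside, whose SE was 0.96, the SE of the other 8 differences was 0.07 to 0.21. Some marker sums were lower after CFC than in the home cage without overlap. These were astrocyte markers (87.4 to 99.0 against 103 to 239 CPM), microglia markers (24.1 to 32.4 against 36.5 to 55.4 CPM) and vascular and mural markers (40.3 to 67.5 against 104 to 528 CPM). The part of these markers in the channel levels was not tested. Of 35 other channel genes 0 passed by edgeR and 1, the silent subunit Kcns1, had an unadjusted p under 0.05 (-1.04 ± 0.45, edgeR adjusted p = 0.896); Kcnh7 followed (-0.52 ± 0.23, adjusted p = 0.899).

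The CFC response of SST minus that of PV libraries passed for 0 of the 9 genes by edgeR or DESeq2 (0% of 16081 genes passed by edgeR). An unadjusted p below 0.05 was found for 2 of the 9 and for 2452 of all genes. The 2 were Kcnip2, at -0.61 ± 0.21 on the log2 scale (edgeR adjusted p = 0.218), and Kcnc1, at 0.47 ± 0.17 (adjusted p = 0.221). For each gene the fitted CFC difference had opposite signs in the 2 lines. Without PV home cage replicate 1 the Kcnc1 difference was 0.59 ± 0.15 and passed (edgeR adjusted p = 0.0325), with 881 genes called in all. Of 35 other channel genes 0 passed, and Kcnh7 (-0.72 ± 0.25) and Kcns1 (-1.32 ± 0.46) had the smallest p, each with an edgeR adjusted p of 0.219.

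**Figure D5:**
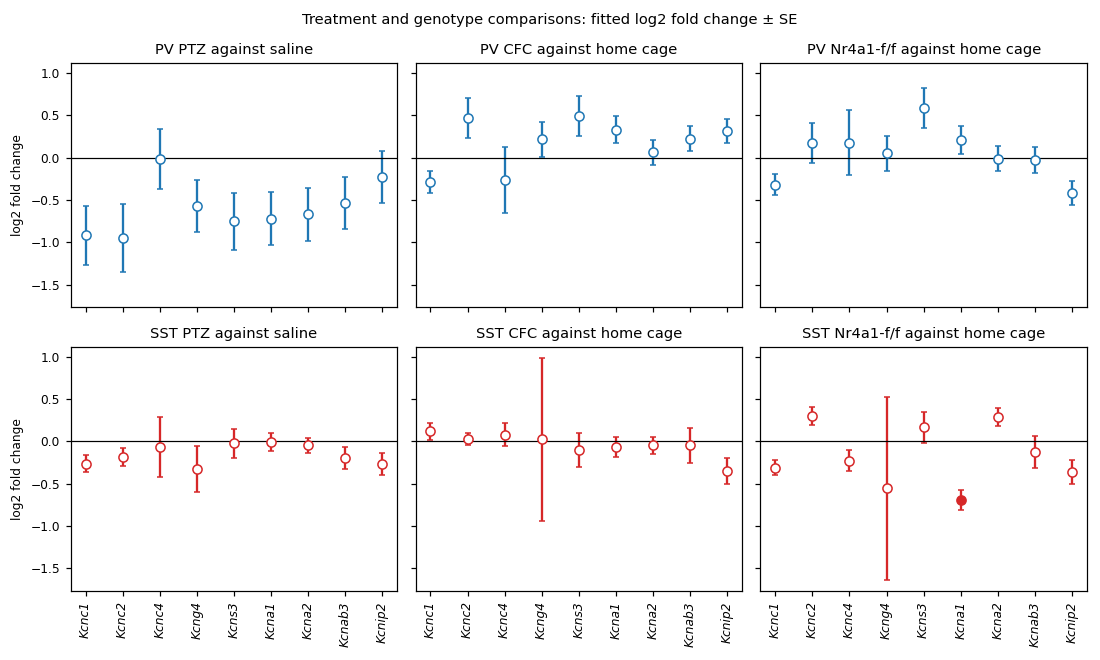
Fitted log2 fold change (points, with SE as bars) of the 9 genes in the 6 treatment and genotype comparisons, PV in blue above and SST in red below; filled points passed the adjusted p threshold of 0.05. The 9 PV PTZ points are all below 0 with wide SE, and the only filled point is Kcna1, at -0.69 in the SST libraries labelled Nr4a1-f/f.

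In PV libraries labelled Nr4a1-f/f, compared with the same home cage libraries as above, 0 of the 9 genes passed by edgeR (0.139% of 15150 genes did, 0.099% higher and 0.0396% lower) or by DESeq2, and 3 had an unadjusted p under 0.05, as did 2699 of all genes. Kcnip2 was at 295, 266 and 205 CPM in libraries labelled Nr4a1-f/f against 351, 335 and 335 CPM (-0.41 ± 0.14, edgeR adjusted p = 0.179). Kcnc1 was at 633, 647 and 585 CPM against 650.5, 816 and 859 CPM (-0.32 ± 0.13, edgeR adjusted p = 0.226). These 2 genes were lower without overlap, beside 9.02% of all genes, and none was higher without overlap, beside 9.37%. Kcns3 leaned the other way, at 123, 98.2 and 78.7 CPM (0.59 ± 0.23, edgeR adjusted p = 0.224). The call depends on the home cage libraries: without replicate 1, Kcnc1 (-0.42 ± 0.12, edgeR adjusted p = 0.0472) and Kcns3 (0.90 ± 0.20, adjusted p = 0.0261) passed, and 1224 genes were called in all. Oligodendrocyte lineage markers summed to 345 to 858 CPM in libraries labelled Nr4a1-f/f and 184 to 360.4 CPM in the home cage, with overlap. Astrocyte markers, at 69.5 to 112 CPM against 48.3 to 62.6 CPM, and microglia markers, at 25.0 to 38.1 CPM against 20.3 to 21.3 CPM, were higher without overlap. Pvalb was at 1052.5, 1345 and 156 CPM against 155, 190.3 and 163 CPM. The part of Pvalb and these markers was not tested. Of 35 other channel genes 0 passed by edgeR and 6 had an unadjusted p under 0.05, led by the Kv4 partner Kcnip1 (0.36 ± 0.13, edgeR adjusted p = 0.188).

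In SST libraries labelled Nr4a1-f/f, Kcna1 was lower than in home cage libraries, the only called change of the 9 genes outside the comparisons of the lines. It was at 72.4, 85.0 and 68.5 CPM against 142, 115 and 108 CPM, a log2 fold change of -0.69 ± 0.12 (edgeR adjusted p = 0.00722). It stayed called without any single library, with adjusted p from 0.00772 to 0.0461. These libraries are batch 5 and the controls batch 4, so batch and genotype cannot be told apart, and 8.1% of 15453 genes were called (4.59% lower and 3.51% higher). That total of 1252 genes was 426 without replicate 2 and 412 without replicate 3 of the libraries labelled Nr4a1-f/f, and 806 without home cage replicate 1. Sst itself was lower by 0.89 ± 0.07 (edgeR adjusted p = 0.000307), and excitatory neuron markers summed to 291 to 323 CPM against 574 to 738 CPM. Oligodendrocyte lineage markers, at 639 to 735 CPM against 954 to 1387 CPM, and microglia markers, at 16.5 to 23.0 CPM against 36.5 to 55.4 CPM, were also lower without overlap. Vascular and mural markers summed to 917 CPM in replicate 1 of the libraries labelled Nr4a1-f/f, but to 36.3 and 35.9 CPM in replicates 2 and 3. In home cage libraries they summed to 104 to 528 CPM. The part of these markers in the Kcna1 difference was not tested.

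The other genes moved less. Kcnc1 was at 131, 142 and 137 CPM against 181, 161 and 168 CPM (-0.31 ± 0.09, edgeR adjusted p = 0.059), and Kcnip2 was at 56.1, 50.3 and 52.0 CPM against 78.3, 65.8 and 59.4 CPM (-0.36 ± 0.14, adjusted p = 0.149). With Kcna1 these were the 3 genes lower without overlap, beside 14.9% of all genes. Kcna2 was higher without overlap, as 15% of all genes were, at 266, 332 and 314 CPM against 244, 255 and 251 CPM (0.28 ± 0.11, edgeR adjusted p = 0.144). The ratio of Kcna1 to Kcna2 was therefore 0.273, 0.256 and 0.218 in libraries labelled Nr4a1-f/f and 0.580, 0.450 and 0.431 in home cage libraries, without overlap. DESeq2 called 3 of the 9 genes, and 2126 of 15453 genes in all, adding Kcnc1 (-0.32, adjusted p = 0.00813) and Kcnc2 (0.29, adjusted p = 0.0345). Without replicate 1 of the libraries labelled Nr4a1-f/f, Kcnc2 was also called by edgeR (0.42 ± 0.07, adjusted p = 0.00923). In that fit 634 of 15834 genes were called higher and 658 lower. Of 35 other channel genes, 2 were higher by edgeR and 0 lower: Kcnf1 (0.68 ± 0.10, edgeR adjusted p = 0.00376) and the Kv1 pore Kcna6 (0.33 ± 0.09, adjusted p = 0.0442).

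The genes whose levels went most like those of Kcnc1 were Amigo1, a membrane protein known as a partner of Kv2 channels, with Pearson's r of 0.941, Laptm4b with 0.94, Nat8l with 0.919, and Slc39a13 and Parm1 with 0.918 each. The measure was the correlation of log2(CPM + 1), centred within each batch, over 34 libraries and among 8004 genes with a mean of at least 5 CPM in every batch. The libraries of a batch share a count table, and batch 2 holds both Cre lines, so this is a description. Of the 9 genes Kcna1 was the nearest to Kcnc1, 38th of these genes with r of 0.866, followed by Kcnab3 at rank 284, Kcna2 at 582, Kcnc2 at 747, Kcnip2 at 748, Kcng4 at 973 and Kcns3 at 1511. Kcnc4 was at rank 7533 with r of -0.62, in the opposite direction to Kcnc1.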

How the data were processed

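Ribosome-bound mRNA was sequenced in 34 libraries. The submitters' processing notes list STAR 2.5.2a, HTSeq 0.11.0, cutadapt 1.18 and DESeq2 among tools, and mm10 and GRCm39 among builds, without roles. The deposited batch 1 table holds expected counts (11.3% of values not whole), which were rounded; the deposited tables of batches 2 to 5 hold raw counts. The batch 2 table lists 11808 genes, others up to 53465. Totals ran from 4933110 to 27282912 per library, and p-values measure only the spread between libraries, which the labels do not tie to separate animals and which may be technical. Among 37 pairs of replicates 0 were identical. Tests used edgeR 4.0.16 (quasi-likelihood F, two-sided, robust, TMM, filterByExpr, Benjamini-Hochberg at 0.05) in R 4.3.3, with all libraries of a table in the fit, and were tested on simulated data. Alternatives were size factors by DESeq2's method, no filter, DESeq2 1.42.0, only the compared groups, a replicate block, and each library left out. Exon lengths and positions are from GENCODE M21 (GRCm38), which matched 53360 of 53465 IDs (99.8%). The 9 genes are named in every comparison; from 36 other channel genes, up to 6 called genes by smallest p or, with none called, the 2 with the smallest p; Pvalb, Sst and Nr4a1 as label checks; and the 5 genes most like Kcnc1. Members, lists and rules were chosen with earlier results of these data known. Some other channel genes are not reported here and are left out of the list counts, so fewer than the rule's number are named in places. The number of columns left unused was 0.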

Additional observations from a re-analysis of the deposited data

Results flagged for a closer look

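Of 18 sets of 4 library values (9 genes in the 2 groups of 4), 1 had a library far from the others: Kcng4 was at 74.8 CPM in PV PTZ replicate 2 of batch 1, against 183, 191 and 179 CPM in the other PTZ libraries, a gap of 0.892 of the whole range. About 1 set in 20 stands out so by chance. The same library had the lowest summed PV interneuron markers of its group, 215 CPM; the part of these markers was not tested.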

How the results depend on the processing

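Over all alternatives other than leaving out 1 library, 424 of 441 values for the 9 genes kept their direction and their side of the threshold, and 615 of 684 with 1 library left out. The number of the 9 genes called rose to 1 for PV libraries labelled Nr4a1-f/f without the filter (Kcns3, 0.61, edgeR adjusted p = 0.02). Of all 26819 genes tested there, 600 were called higher and 472 lower. For the SST libraries labelled so it rose to 2 with other size factors, 2 without the filter and 3 with DESeq2. Over all genes, 567 were higher and 778 lower of 15453 with other size factors. Without the filter these were 728 and 554 of 27998, and with DESeq2 978 and 1148 of 15453. With 1 library left out, called genes of the 9 ranged from 0 to 1 for PV CFC, 0 to 2 for PV and 1 to 2 for SST libraries labelled Nr4a1-f/f, 6 to 8 for either comparison of the lines, 0 to 1 for the difference in CFC response, and were 0 throughout for the rest. In the same fits, calls over all genes ranged from 0 to 1481 for PV CFC and 0 to 881 for the difference in CFC response. They ranged from 7 to 1224 for PV and 412 to 1292 for SST libraries labelled Nr4a1-f/f. For the lines they were 5476 to 6982 in saline and 4688 to 5737 in home cage libraries. Kcnc2 was at -0.34 (adjusted p = 0.0701) in the saline comparison of the lines with only the compared groups, and Kcng4 at -2.80 (adjusted p = 0.0913) in that of home cage libraries; DESeq2 called Kcns3 in the former (-0.51, adjusted p = 0.0422). The cause was not tested.

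With every library kept, 8 values changed sign. Kcna1 in SST PTZ was 0.00205 with other size factors, 0.00204 with DESeq2, 0.00357 with only the compared groups and 0.0444 with the replicate block, and Kcna2 in PV libraries labelled Nr4a1-f/f was 0.0162 without the filter. The replicate block also gave 0.0348 for Kcnc4 in SST PTZ, 0.093 for Kcnc4 in the difference of PTZ responses and 0.478 for Kcng4 in that of CFC responses, and took Kcnc2 in the saline comparison of the lines to -0.31 (adjusted p = 0.0965). Same-numbered libraries share only a number: correlations of their deviations ran from -0.237 to 0.45, and 2 or 3 of 6 libraries per comparison correlated best with their own number.

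With 1 library left out, the log2 fold change changed sign for the values that follow. In PV PTZ it ran for Kcnc4 from -0.29 to 0.40. In SST PTZ it ran for Kcnc4 from -0.16 to 0.0312, Kcns3 from -0.0565 to 0.0282, Kcna1 from -0.0745 to 0.0522 and Kcna2 from -0.14 to 0.00218. In PV CFC it ran for Kcnc4 from -0.49 to 0.18 and Kcna2 from -0.0051 to 0.12. In SST CFC it ran for Kcnc2 from -0.0249 to 0.0716, Kcnc4 from -0.0122 to 0.18, Kcng4 from -0.90 to 1.39, Kcns3 from -0.23 to 0.13, Kcna1 from -0.14 to 0.0545, Kcna2 from -0.15 to 0.0396 and Kcnab3 from -0.27 to 0.0808. In PV libraries labelled Nr4a1-f/f it ran for Kcnc2 from -0.0221 to 0.42, Kcnc4 from -0.16 to 0.62, Kcng4 from -0.14 to 0.24, Kcna2 from -0.12 to 0.14 and Kcnab3 from -0.15 to 0.0922. In SST libraries labelled Nr4a1-f/f it ran for Kcng4 from -1.16 to 0.87 and Kcnab3 from -0.34 to 0.0403. In the difference in PTZ response it ran for Kcnc4 from -0.53 to 0.21, Kcng4 from -0.0213 to 0.37 and Kcnip2 from -0.26 to 0.17. In the difference in CFC response it ran for Kcnc4 from -0.0408 to 0.64, Kcng4 from -1.08 to 1.27 and Kcna2 from -0.14 to 0.0339.

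Counts over all genes moved more: PV PTZ 215 with DESeq2, 2 with the replicate block and 0 without PTZ replicates 1 and 2; SST PTZ 38 with DESeq2 or only the compared groups and 8 with the block; PV CFC 1032 without the filter, 745 with DESeq2, and 2 with only the compared groups or the block; SST CFC 11 without the filter, 102 with DESeq2 and 2 with the block; PV libraries labelled Nr4a1-f/f 1072 without the filter, 669 with DESeq2 and 10 with only the compared groups; SST libraries labelled so 2126 with DESeq2 and 412 to 1292 with 1 library left out; the difference in CFC response 708 without the filter and 327 with DESeq2, and that in PTZ response 1 with DESeq2 or the block. The split of higher and lower calls moved from 15 and 6 to 600 and 472 without the filter and 267 and 402 with DESeq2 in PV libraries labelled Nr4a1-f/f, and from 543 and 709 to 728 and 554 without the filter in SST libraries labelled so. Depth is lowest in PV saline of batch 2, which has 2 libraries.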
